A study of Homo sapiens with 22 samples.

Results

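The aryl hydrocarbon receptor genes described here are 10: the receptor AHR, its partner ARNT, and CYP1A1, CYP1A2, CYP1B1, AHRR, TIPARP, NQO1, ALDH3A1 and UGT1A6, which textbooks list as its targets. They were picked out of 25244 genes in the shHUWE1 experiment and 25791 in the shMiz1 experiment by their symbols, and all 10 were found in both. They were chosen by measured values too, because responses of these cells to BI8622 were already known when the list was made, so the responses below are a description and carry no test. All values come from Ls174T cells, a human colon carcinoma line, whose poly-A RNA was sequenced. In the shHUWE1 experiment, pools of cells carried pLKO-empty, a vector without an shRNA, or pLKO-shHUWE1, which makes an shRNA against the ubiquitin ligase HUWE1 all the time, and received DMSO or BI8622, an inhibitor of HUWE1. In the shMiz1 experiment, all cells carried pIND-shMiz1, an shRNA against the MYC partner MIZ1 (gene ZBTB17) that doxycycline switches on. Doxycycline was left out or given at 1 µg/ml over 4 days, again with DMSO or BI8622. BI8622 was given at 20 µM for 16 h. Each experiment had 4 groups of 2 libraries. It is not stated whether both libraries of a group stem from separate cultures.

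AHR is a ligand-activated transcription factor of the bHLH-PAS family. In its resting state it is held in the cytoplasm by a chaperone complex that includes HSP90 and p23. A bound ligand, such as dioxin or a plant indole, sends it to the nucleus, where it pairs with ARNT and binds short elements around the core GCGTG. The classical targets encode enzymes that oxidise or conjugate foreign compounds, and AHRR and TIPARP, which act back on the receptor. In the intestine the receptor is known as a sensor of dietary and microbial ligands.

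The elements are shown first for genes whose response is described below. The core GCGTG was searched on both strands, also where matches overlap, in RefSeq promoters of 300 bases (GRCh38.p14, from 250 bases before the start). Of 35116 such promoters, 36.5% held at least 1 core and 5.51% held the longer form TNGCGTG. The table had 12 promoters for 8 of the 10 genes, and CYP1B1 and ALDH3A1 were not among them. Of these 12 promoters, 7 held a core and 3 the longer form. Capitals mark the core on either strand:
CYP1A1 promoter, chr15:74725479-74725778, minus strand: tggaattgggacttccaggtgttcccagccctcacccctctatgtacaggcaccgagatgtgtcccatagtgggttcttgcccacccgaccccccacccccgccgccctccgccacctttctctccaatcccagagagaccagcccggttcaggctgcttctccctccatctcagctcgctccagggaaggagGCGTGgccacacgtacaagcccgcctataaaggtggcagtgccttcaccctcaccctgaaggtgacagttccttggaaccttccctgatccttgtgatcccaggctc
AHRR promoter, chr5:321464-321763, plus strand: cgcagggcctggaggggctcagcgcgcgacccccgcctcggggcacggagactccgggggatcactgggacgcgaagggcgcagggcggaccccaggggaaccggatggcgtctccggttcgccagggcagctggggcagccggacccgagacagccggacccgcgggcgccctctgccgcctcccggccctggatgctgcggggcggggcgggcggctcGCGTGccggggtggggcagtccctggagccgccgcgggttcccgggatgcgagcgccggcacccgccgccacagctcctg
TIPARP promoter, chr3:156674340-156674639, plus strand: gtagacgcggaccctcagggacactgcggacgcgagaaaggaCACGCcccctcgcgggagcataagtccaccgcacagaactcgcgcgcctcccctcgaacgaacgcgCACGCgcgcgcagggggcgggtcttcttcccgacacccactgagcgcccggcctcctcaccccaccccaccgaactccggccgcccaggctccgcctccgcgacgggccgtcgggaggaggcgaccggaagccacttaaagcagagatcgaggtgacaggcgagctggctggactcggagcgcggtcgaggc
NQO1 promoter, chr16:69726511-69726810, minus strand: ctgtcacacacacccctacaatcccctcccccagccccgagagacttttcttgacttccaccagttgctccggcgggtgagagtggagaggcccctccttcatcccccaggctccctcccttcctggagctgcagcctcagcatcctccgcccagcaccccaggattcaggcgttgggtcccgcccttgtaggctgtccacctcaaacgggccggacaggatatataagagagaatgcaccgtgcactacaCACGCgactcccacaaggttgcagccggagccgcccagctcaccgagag
UGT1A6 promoter, chr2:233691452-233691751, plus strand: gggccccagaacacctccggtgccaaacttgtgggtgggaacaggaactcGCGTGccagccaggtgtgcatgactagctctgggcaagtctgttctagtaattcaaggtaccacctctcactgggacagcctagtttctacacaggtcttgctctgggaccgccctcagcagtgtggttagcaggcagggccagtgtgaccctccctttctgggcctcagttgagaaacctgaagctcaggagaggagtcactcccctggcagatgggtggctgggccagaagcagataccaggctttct
The AHRR, NQO1 and UGT1A6 promoters shown are those with the longer form. The promoter of ARNT and that of CYP1A2 held no core. The other promoters of TIPARP and of UGT1A6, which are not shown, held no core either. Also not shown are the AHR promoter, with 1 core, and the other AHRR promoter, with 2 cores. A match is a run of letters and not a measured binding site.

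The 1500 bases before the start of CYP1A1 were searched as well. This window is longer than the promoters of 300 bases, so counts are not compared between them. In GRCh37, the build of the deposited data, they held 10 cores, a number reached by 0.594% of the 19867 protein-coding genes searched, whose median was 2. They held 5 of the longer form, a number reached by 0.0201%. Windows were kept only for the 8 genes with a promoter above, so none is given for CYP1B1 and ALDH3A1, which are past 2-fold below. Of the other windows, ARNT held 2 of the longer form, a number reached by 4.53%. AHRR and UGT1A6 held 1 each, a number reached by 26.5%, and AHR, CYP1A2, NQO1 and TIPARP held 0. The corresponding windows held 6 cores for TIPARP (reached by 7.39%), 5 for ARNT (13.5%) and 4 for AHRR (23.3%). They held 2 for NQO1 (57.6%), 1 each for CYP1A2 and UGT1A6 (80.3%), and 0 for AHR. The 300 bases of the CYP1A1 window with the most long cores lay 854 to 1153 bases upstream and held 4 cores, 3 of them long. They are shown because CYP1A1 had the highest ratio of BI8622 to DMSO on the deposited scale, among genes of at least 1 CPM over pairs:
CYP1A1 upstream, GRCh37 chr15:75018723-75019022, minus strand: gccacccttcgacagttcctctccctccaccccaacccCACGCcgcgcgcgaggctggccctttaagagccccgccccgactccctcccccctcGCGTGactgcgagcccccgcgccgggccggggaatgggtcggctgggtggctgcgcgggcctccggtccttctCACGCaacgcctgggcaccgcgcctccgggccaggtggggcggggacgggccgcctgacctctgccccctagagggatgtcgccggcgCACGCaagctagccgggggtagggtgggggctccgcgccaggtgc

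The deposited values used here are the authors' mean levels over pairs of groups, on a log2 scale of reads scaled by library size (CPM). The level of each group was solved from the overlapping pairs, with no value per library and so no replicate error. No difference below could therefore be set against a spread between libraries. In the shMiz1 experiment the mean BI8622 level can be reached by 2 routes, and their gap over 25228 genes had a median of 0.00181 and a 95th percentile of 0.00809 on the log2 scale. That gap is the error of the arithmetic and not of the cells. The 4 arms (pLKO-empty, shHUWE1, and shMiz1 without and with doxycycline) share no library, but groups of an experiment were solved from overlapping pairs. The arms also differ by vector, shRNA and doxycycline. The range over arms is thus not a spread of replicates of the response to BI8622. CPM is not corrected for gene length, so levels are compared within a gene. Exceptions are genes of the UGT1A locus, which share reads, and sums over marker genes. The experiments were normalized separately.

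The targeted genes followed their labels. HUWE1 was 420 CPM in pLKO-empty cells and 218 CPM in shHUWE1 cells in DMSO, and 460 and 176 CPM in BI8622. ZBTB17 was 15.7 CPM without and 11.0 CPM with doxycycline in DMSO, and 22.6 and 11.4 CPM in BI8622. Of 11 markers of colon epithelium all had at least 1 CPM in every group. Their summed level was 1790 to 2493 CPM in the 4 DMSO groups and 2318 to 3087 CPM in the 4 BI8622 groups. It was higher with BI8622 in each arm, though these ranges overlap. The sum is weighted to the genes with the most reads. KRT8 went from 759 to 1124 CPM in the shHUWE1 experiment and from 676 to 1114 CPM in the shMiz1 experiment. KRT18 went from 430 to 636 and from 378 to 613 CPM. CDX1, CDX2 and EPCAM had lower levels with BI8622 in both experiments. Of 10 markers of leukocytes, fibroblasts, endothelium and liver, 4 were listed in the shHUWE1 experiment and 5 in the shMiz1 experiment, and they summed to 13.7 to 20.4 CPM. With BI8622, 1 epithelial marker was 2-fold higher in the shHUWE1 experiment (KRT20), and in the shMiz1 experiment 2 were 2-fold higher (KRT20 and MUC2) and 2 were 2-fold lower (CDX1 and CDX2), while 0 of the other markers passed 2-fold. The part of these markers in the responses was not tested. In such bulk RNA, fewer cells that express a gene and less RNA per cell cannot be told apart.

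The log2 ratios of BI8622 to DMSO ran from 0.09 (ARNT) to 8.33 (CYP1A1) in the shHUWE1 experiment. In the shMiz1 experiment they ran from 0.40 (AHR) to 9.69 (CYP1A1). Of all genes, 62.0% had a lower ratio than ARNT in the first experiment. In the second, 79.2% had a lower ratio than AHR. In each experiment 5 of the 10 were at least 2-fold higher and 0 were at least 2-fold lower, and the 5 were the same: CYP1A1, CYP1A2, CYP1B1, TIPARP and ALDH3A1. Among all genes of at least 1 CPM, 1.46% were at least 2-fold higher with BI8622 in the shHUWE1 experiment and 0.625% at least 2-fold lower. In the shMiz1 experiment these shares were 4.63% and 2.86%, and 1.22% of the genes measured in both were at least 2-fold higher in both. The median log2 ratio of the 10 genes was 1.03 in the shHUWE1 experiment and 1.27 in the shMiz1 experiment, against -0.0092 and 0.024 for all genes. Since the genes were chosen with such responses known, nothing is read from these counts. Just inside the 2-fold limit lay ALDH3A1 in both experiments (log2 ratio 1.14 and 1.59). Just outside lay UGT1A6 for shHUWE1 (0.92) and AHRR in the shMiz1 experiment (0.95).

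**Figure D1:**
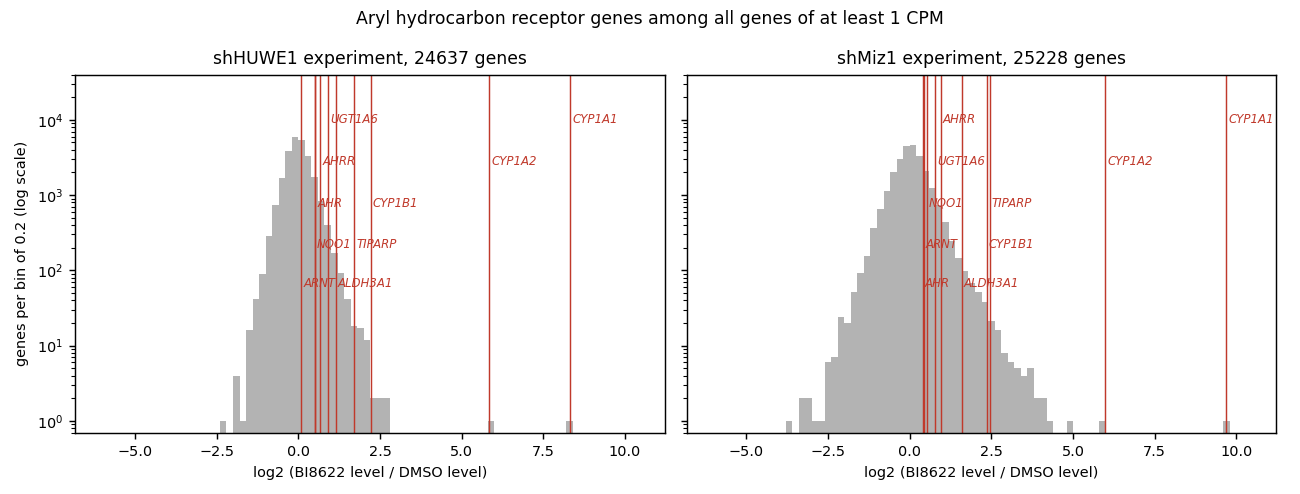
Histogram of the log2 ratio of the BI8622 level to the DMSO level over all genes of at least 1 CPM (grey, log count axis), with the 10 aryl hydrocarbon receptor genes as red lines, in the shHUWE1 experiment (left) and the shMiz1 experiment (right). CYP1A1 (8.33 and 9.69) and CYP1A2 (5.85 and 5.99) lie beyond every other gene shown, and both passed 1 CPM only through their BI8622 levels. AHR, ARNT and NQO1 lie within the bulk.

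CYP1A1 encodes a monooxygenase that oxidises polycyclic aromatic hydrocarbons and is the most used marker of receptor activity. The gene (ENSG00000140465) lies at chr15:75011883-75017877 on the minus strand of GRCh37 and overlaps no other annotated gene. Its mean level over both DMSO groups was 0.955 CPM in the shHUWE1 experiment and 0.863 CPM in the shMiz1 experiment. These values include a floor of the deposited means, since the lowest gene of the same column had 0.352 and 0.232 CPM. CYP1A1 RNA was therefore close to the lowest level recorded in DMSO. With BI8622 its mean level was 306 CPM in the shHUWE1 experiment and 715 CPM in the shMiz1 experiment, 321-fold and 828-fold higher. On this scale it had the highest ratio among 24637 and among 25228 genes of at least 1 CPM over pairs. It passed that minimum through its BI8622 groups, because its mean DMSO level was under 1 CPM. With the floor subtracted the ratios were 507-fold and 1131-fold, and with non-negative least squares the ratio in the shMiz1 experiment was 2591-fold. With the floor subtracted, CYP1A2 had a higher ratio than CYP1A1 in the shHUWE1 experiment, so the order of these genes there depends on the floor.

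The level of CYP1A1 in BI8622 could be bounded in each arm, because DMSO added little to each pair. In pLKO-empty cells it was between 301 and 302 CPM and in shHUWE1 cells between 310 and 312 CPM. These levels are close to each other, with a log2 ratio of 0.04 that exceeded that of 63.1% of all genes. Without doxycycline it was 812 to 814 CPM and with doxycycline 604 to 606 CPM, from the pair of DMSO and BI8622 in each arm. These bounds put the level with doxycycline 25.4% to 25.8% lower. Fitted to all 5 pairs of that experiment, the levels were 821 and 607 CPM, 26.1% lower (log2 ratio -0.44), and 4.32% of all genes had a lower ratio. This fit lies above the bounds and gives -3.60 CPM for DMSO without doxycycline, which is no possible level. Without values per library, the difference between the arms could not be set against a spread.

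CYP1A2, a close relative with a role in the metabolism of caffeine and aryl amines, is mostly known from liver. It (ENSG00000140505) lies on the opposite strand at chr15:75041186-75048948, 23308 bases from CYP1A1, and overlaps no other annotated gene. Its mean DMSO level was 0.394 CPM in the shHUWE1 experiment and 0.409 CPM in the shMiz1 experiment, near the lowest level recorded. With BI8622 it was 22.7 and 26.0 CPM, 57.7-fold and 63.6-fold higher, and on the deposited scale the second highest ratio in both experiments. Like CYP1A1, it passed the minimum of 1 CPM through its BI8622 groups, so its rank rests partly on that minimum. With the floor subtracted the folds were 520 and 144, the first of them above the 507 of CYP1A1, so for this gene the fold is set by the floor and the level in BI8622 is the firmer value. By arm, CYP1A2 in BI8622 was 19.8 CPM in pLKO-empty cells, 25.7 CPM in shHUWE1 cells, 29.3 CPM without doxycycline and 22.7 CPM with it. The level was thus higher with shHUWE1 (log2 ratio 0.37, above 94.0% of all genes) and lower with doxycycline (log2 ratio -0.37, 6.38% of all genes being lower). CYP1A1 and CYP1A2 had the same direction with doxycycline.

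CYP1B1, which oxidises oestrogens and aromatic hydrocarbons, was already expressed in DMSO. The gene (ENSG00000138061, chr2:38294116-38337044, minus strand) had 25.1 CPM in pLKO-empty cells, 20.4 CPM in shHUWE1 cells, 22.7 CPM without doxycycline and 27.5 CPM with it. With BI8622 it had 115, 96.9, 123 and 137 CPM in the same order. In each experiment both BI8622 groups lay above both DMSO groups. The share of all genes with such a separation was not counted. The response was 4.60-fold to 5.42-fold over the 4 arms, a narrow range on the log2 scale (2.20 to 2.44). Its ratio was ranked 8 in the shHUWE1 experiment and 77 in the shMiz1 experiment. CYP1B1-AS1, an antisense gene that overlaps it, went from 13.2 to 47.1 CPM in the shHUWE1 experiment and from 9.64 to 46.0 CPM in the shMiz1 experiment. It is not stated whether reads were counted by strand, so reads of both genes cannot be told apart.

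**Figure D2:**
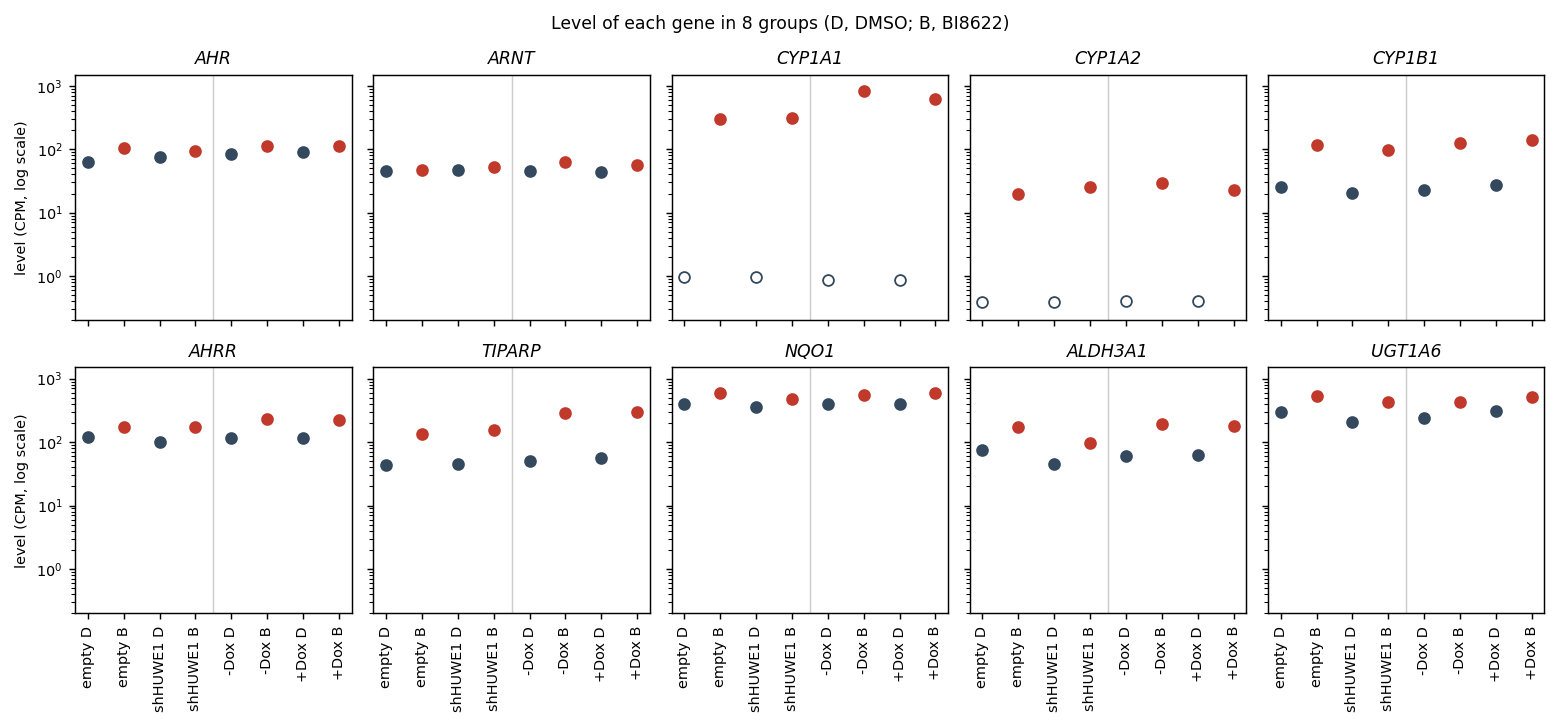
Level in CPM (log axis) of the 10 genes in the 4 groups of the shHUWE1 experiment (left of the grey line) and the 4 groups of the shMiz1 experiment (right of it), DMSO in dark blue and BI8622 in red. Open circles stand for the mean over both DMSO groups, used for CYP1A1 and CYP1A2 whose single DMSO groups were not resolved. Of the genes resolved by group, CYP1B1 and TIPARP have the widest gap between DMSO and BI8622. The gap is smallest for ARNT (46.2 against 46.4 CPM in the shHUWE1 experiment), and NQO1 differs less than 1.5-fold in every arm.

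AHRR and TIPARP are feedback genes. AHRR competes with the receptor for ARNT, and TIPARP is a mono-ADP-ribosyltransferase that modifies the receptor. TIPARP (ENSG00000163659, chr3:156391024-156424559, plus strand) had 43.6 CPM in pLKO-empty cells, 45.5 CPM in shHUWE1 cells, 49.5 CPM without doxycycline and 56.4 CPM with it in DMSO. In BI8622 it had 135, 156, 283 and 301 CPM. The DMSO levels lay close together, and the BI8622 levels were higher in both arms of the shMiz1 experiment than in both arms of the shHUWE1 experiment. The response was 3.10-fold and 3.44-fold in the shHUWE1 experiment and 5.72-fold and 5.34-fold in the shMiz1 experiment. Its ratio ranked 43 and 69 among all genes, so its rank was not higher where its fold was larger. The 5th and 95th percentiles of all genes were log2 ratios of -0.59 and 0.66 in the shHUWE1 experiment and -0.83 and 0.97 in the shMiz1 experiment, where responses to BI8622 were wider in general.

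AHRR (ENSG00000063438, chr5:321829-438406, plus strand) had 119 CPM in pLKO-empty cells, 101 CPM in shHUWE1 cells, 117 CPM without doxycycline and 115 CPM with it in DMSO. In BI8622 it had 175, 174, 230 and 220 CPM. In each experiment both BI8622 levels lay above both DMSO levels, and the share of all genes for which this held was not counted. The response of 1.48-fold to 1.96-fold stayed under 2-fold in each arm. The annotation has a read-through transcript that joins PDCD6, the neighbouring gene, to AHRR, so part of the AHRR count may belong to it. PDCD6 itself had 135, 116, 132 and 130 CPM in DMSO and 129, 121, 124 and 127 CPM in BI8622, and showed no comparable difference. The part of read-through reads in the AHRR level was not tested.

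ALDH3A1, NQO1 and UGT1A6 belong to the enzymes that the receptor shares with other stress pathways. ALDH3A1, an aldehyde dehydrogenase (ENSG00000108602, chr17:19641297-19652256, minus strand), had 76.0 CPM in pLKO-empty cells, 45.6 CPM in shHUWE1 cells, 60.7 CPM without doxycycline and 62.4 CPM with it in DMSO. In BI8622 it had 170, 97.9, 189 and 182 CPM. The response was 2.23-fold, 2.15-fold, 3.12-fold and 2.92-fold in these arms. The shHUWE1 cells thus had the lowest ALDH3A1 level in both DMSO and BI8622, with a response like that of pLKO-empty cells.

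NQO1, a quinone reductase, is a target of both the receptor and NRF2. The gene (ENSG00000181019, chr16:69740899-69760571, minus strand) had 399, 362, 394 and 401 CPM in DMSO, in the order pLKO-empty, shHUWE1, without and with doxycycline. In BI8622 it had 590, 485, 561 and 587 CPM. The response was 1.34-fold to 1.48-fold, above 90.7% of all genes in the shHUWE1 experiment and 85.0% in the shMiz1 experiment.

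UGT1A6, a glucuronosyltransferase of phenols, had 302, 204, 237 and 305 CPM in DMSO and 527, 429, 422 and 506 CPM in BI8622, in the same order. The response was 1.66-fold to 2.11-fold, and past 2-fold in shHUWE1 cells alone. The gene (ENSG00000167165, chr2:234600253-234681946, plus strand) is one of several first exons of the UGT1A locus that are spliced to the same last exons. UGT1A7, UGT1A8, UGT1A9 and UGT1A10 had levels 0.0172% to 0.758% above that of UGT1A6 in every group. UGT1A1, UGT1A3, UGT1A4 and UGT1A5 had levels 14.7% to 24.2% below it. The 9 listed genes had the same pattern over the groups. The values listed under UGT1A6 are thus not specific to it, and describe the locus.

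**Figure D3:**
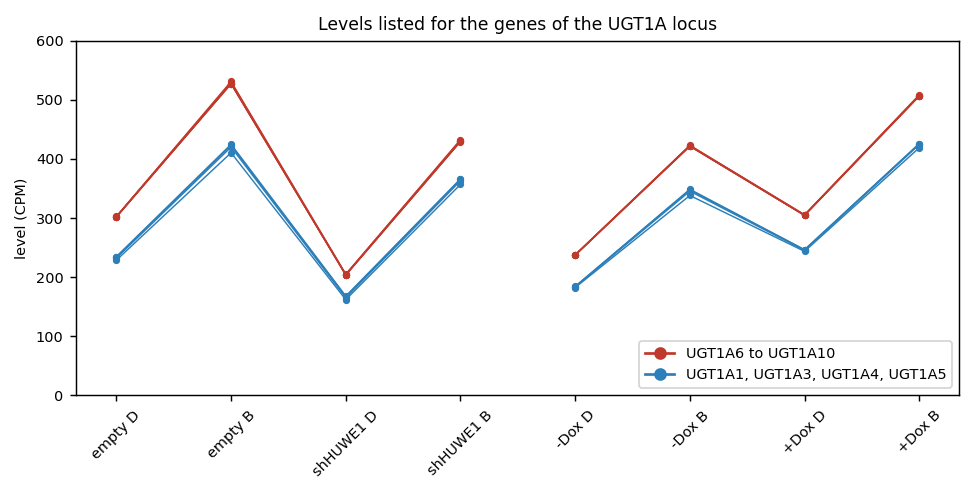
Level in CPM of the 9 UGT1A genes in the 8 groups, with lines joining the groups of 1 experiment. UGT1A6 to UGT1A10 (red) coincide within 0.758%, and UGT1A1, UGT1A3, UGT1A4 and UGT1A5 (blue) run 14.7% to 24.2% below UGT1A6 with the same pattern.

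The receptor and its partner differed less between BI8622 and DMSO than most of the targets did. AHR (ENSG00000106546, chr7:16955983-17385776, plus strand) had 63.1 CPM in pLKO-empty cells, 74.6 CPM in shHUWE1 cells, 83.2 CPM without doxycycline and 89.8 CPM with it in DMSO. In BI8622 it had 103, 95.1, 114 and 114 CPM. The response was 1.27-fold to 1.63-fold. ARNT (ENSG00000143437, chr1:150782189-150849184, minus strand) had 45.6, 46.2, 44.9 and 43.6 CPM in DMSO and 46.4, 51.4, 62.0 and 56.7 CPM in BI8622. Its response was 1.02-fold and 1.11-fold in the shHUWE1 experiment and 1.38-fold and 1.30-fold in the shMiz1 experiment. ARNT had the smallest ratio of the 10 genes in the shHUWE1 experiment, where 62.0% of all genes had a lower ratio, and AHR had the smallest in the shMiz1 experiment, where 79.2% had a lower ratio.

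**Figure D4:**
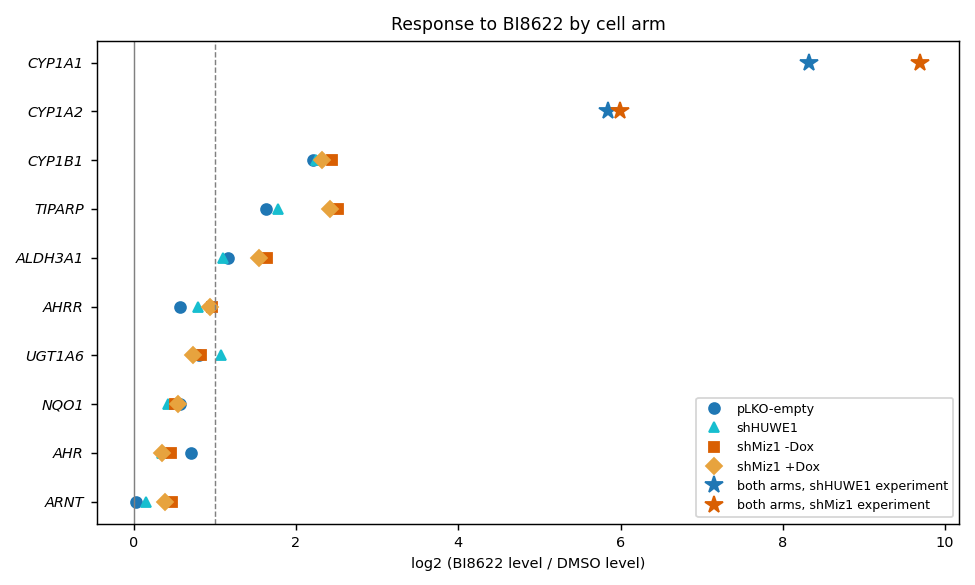
Log2 ratio of the BI8622 level to the DMSO level in the 4 arms (circles, triangles, squares and diamonds) for 8 genes, and over both arms of each experiment (stars) for CYP1A1 and CYP1A2; the dashed line marks 2-fold. CYP1B1 has nearly the same ratio in each arm (2.20 to 2.44), while TIPARP has 1.63 and 1.78 in the shHUWE1 experiment against 2.52 and 2.42 for shMiz1 cells.

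Depletion of HUWE1 and doxycycline were compared with their controls in DMSO to see how the genes varied without the inhibitor. The 8 genes other than CYP1A1 and CYP1A2 could be compared. None of the 8 differed by 2-fold between shHUWE1 and pLKO-empty cells (0 of 8), where 0.812% of all genes did, and 0 of 8 differed by 2-fold with doxycycline, where 0.353% did. ALDH3A1 and UGT1A6 had the largest differences with shHUWE1. ALDH3A1 was 40.0% lower in DMSO (log2 ratio -0.74, 0.662% of all genes being lower) and 42.3% lower in BI8622 (-0.79, 1.01%). UGT1A6 was 32.5% lower in DMSO (-0.57, 1.86% of all genes being lower) and 18.5% lower in BI8622 (-0.30, 12.5%). CYP1B1 had log2 ratios of -0.30 and -0.25, while TIPARP had 0.06 and 0.21. The 8 genes did not share a direction with depletion of HUWE1, which left HUWE1 at 218 CPM against 420 CPM in DMSO. Because the genes were chosen with responses to BI8622 known, depletion and inhibitor are not compared by direction. With doxycycline, the largest difference in DMSO was that of UGT1A6, which was 28.3% higher (log2 ratio 0.36).

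**Figure D5:**
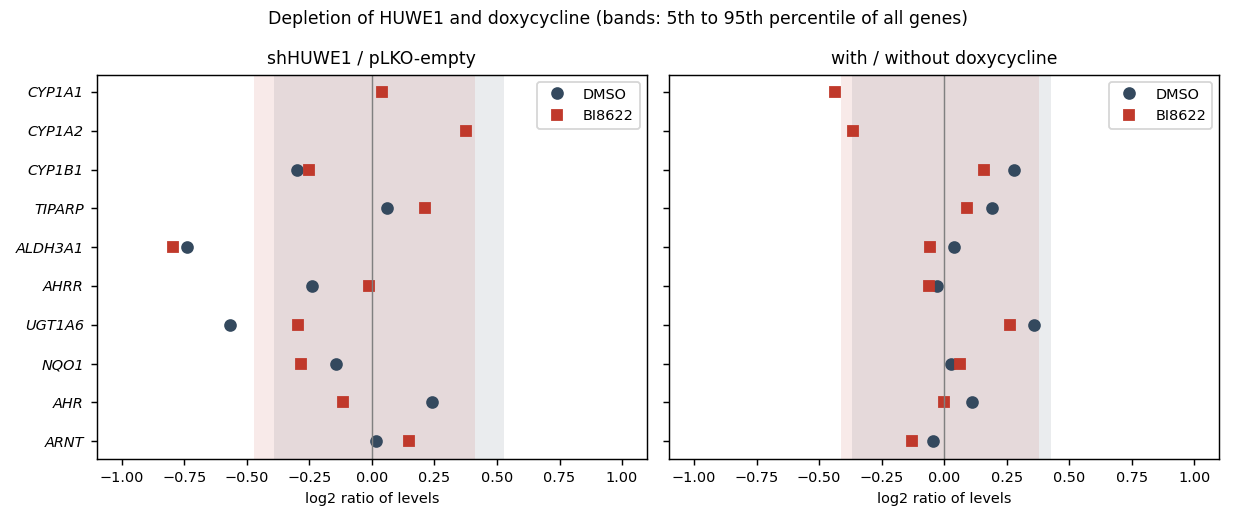
Log2 ratio of levels between shHUWE1 and pLKO-empty cells (left) and between cells with and without doxycycline (right) for the aryl hydrocarbon receptor genes, in DMSO (dark circles) and in BI8622 (red squares). Bands span the 5th to 95th percentile of all genes of at least 1 CPM; ALDH3A1 lies outside them on the left in both treatments (-0.74 and -0.79) and UGT1A6 in DMSO (-0.57), and CYP1A1 on the right in BI8622 (-0.44).

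Genes around the receptor were read from lists. Of the receptor's chaperones, coactivators and other partners, 12 were measured in the shHUWE1 experiment and 13 in the shMiz1 experiment. None was 2-fold higher in either, and 1 was 2-fold lower in the shMiz1 experiment, HSP90AA1, where 2.86% of all genes were. HSP90AA1, the stress-inducible HSP90, was 2829 CPM in DMSO and 1959 CPM in BI8622 in the shHUWE1 experiment (log2 ratio -0.53), and 3379 and 1533 CPM in the shMiz1 experiment (-1.14). HSP90AB1 and PTGES3, named here after their values were seen, had lower levels too. HSP90AB1 had log2 ratios of -0.42 and -0.67, and PTGES3, which encodes p23, had -0.48 and -0.88. The median of the list was 0.07 and 0.37.

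Of 20 other genes reported to respond to the receptor, 17 were measured in each experiment. At least 2-fold higher were 2 in the shHUWE1 experiment and 3 in the shMiz1 experiment, and 2 in both, against 1.46%, 4.63% and 1.22% of all genes. EREG, an EGF receptor ligand, was 47.6 and 130 CPM in DMSO and BI8622 in the shHUWE1 experiment and 62.0 and 265 CPM in the shMiz1 experiment. ALDH1A3, a retinaldehyde dehydrogenase, was 7.77 and 22.9 CPM and then 8.76 and 29.4 CPM. Of the 17 genes, 7 are UGT1A genes that share their counts, so the list's medians of 0.92 and 0.78 are those of that locus. ABCG2, a drug transporter often used as a receptor target and named after its values were seen, had log2 ratios of -0.06 and 0.09.

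Other pathways that govern xenobiotic enzymes were read the same way, against 1.46% of all genes that were 2-fold higher in the shHUWE1 experiment and 4.63% in the shMiz1 experiment. Of 8 PXR and CAR genes measured, 1 was 2-fold higher in the shHUWE1 experiment and 2 in the shMiz1 experiment. The medians of the log2 ratio were 0.14 and -0.03. CYP2B6, a classical CAR target, was 14.5 and 37.7 CPM in DMSO and BI8622 in the shHUWE1 experiment, and 12.8 and 38.1 CPM in the shMiz1 experiment. Of 10 NRF2 targets and regulators, 1 and 2 were 2-fold higher, with medians of 0.20 and 0.56. SLC7A11, a cystine transporter that also answers to amino acid stress, was 92.7 and 253 CPM, and 97.4 and 404 CPM. SRXN1, also past 2-fold in the shMiz1 experiment, had log2 ratios of 0.06 and 1.18. HMOX1, a classical NRF2 target, had log2 ratios of -0.10 and -0.71. In the shMiz1 experiment no other gene of this list had a negative ratio. In the shHUWE1 experiment only KEAP1 (-0.12) was negative besides HMOX1. SRXN1, HMOX1 and KEAP1 were named after their values were seen. Of 7 related bHLH-PAS factors, 0 and 2 were 2-fold higher, with medians of 0.30 and 0.22. The most extreme ratio was that of ARNTL, a clock factor, in the shMiz1 experiment (log2 ratio 1.30, and 0.48 in the shHUWE1 experiment). ARNTL2, named after its values were seen, was the furthest from 0 in the shHUWE1 experiment, with -0.65 there and -0.95 in the shMiz1 experiment.

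Among the other cytochrome P450 genes, 12 of 40 were at least 2-fold higher in the shHUWE1 experiment and 17 of 48 in the shMiz1 experiment. All 12 were among the 17, and 0 were 2-fold lower. Of all genes, 1.46%, 4.63% and, in both, 1.22% were 2-fold higher. The medians were 0.34 and 0.53. The 12 include CYP51A1 of cholesterol synthesis (log2 ratio 1.45 and 1.77), CYP2S1, a reported receptor target (1.06 and 1.04), and CYP4F2, CYP4F3, CYP4F11 and CYP4F12, fatty acid hydroxylases of 1 gene cluster. CYP4F2 had 2.18 and 1.81, CYP4F3 1.08 and 1.84, CYP4F11 1.21 and 2.23, and CYP4F12 1.41 and 1.30. CYP2F1 had 1.24 and 2.13. CYP51A1P1, CYP51A1P2 and CYP2B7P are pseudogenes that resemble CYP51A1 and CYP2B6, and reads can be split between copies, as within the CYP4F cluster. CYP2B6 and CYP1B1-AS1, given above, complete the 12. None of these genes came near CYP1A1 and CYP1A2. Behind these the highest ratios were those of IZUMO1 (6.80-fold), FGF21 (6.54-fold) and CD22 (5.89-fold) in the shHUWE1 experiment. In the shMiz1 experiment they were those of TP53TG3C (31.4-fold) and the unnamed genes ENSG00000230803 (18.6-fold) and ENSG00000225813 (18.0-fold). From IZUMO1 on, each gene named here had a mean level under 1 CPM in DMSO. Each thus passed the minimum of 1 CPM only through its BI8622 level.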

How the data were processed

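Poly-A RNA of Ls174T cells was sequenced on the Illumina platform. Alignment by the authors was to hg19, using Bowtie 0.12.8, and their pairwise comparisons used edgeR. Annotation and read counting are not stated. Each deposited table gives, for each pair of groups, a log2 fold change, a p-value and an adjusted p-value of the authors' own comparison, which were not used, and a mean level in log2 CPM, which was. As deposited, these log2 values are the authors' means over 4 libraries, so depth and spread per library are unknown, and precision could not be given. Here, 7 repeated rows per table were dropped, and levels were taken off the log scale. A pair mean was taken as the average of its 2 groups, and group levels were solved by least squares (numpy 2.4.6) from 4 pairs in the shHUWE1 and 5 in the shMiz1 experiment. The mean DMSO level was a deposited pair in both. Genes of at least 1 CPM over pairs were counted at 2-fold. The method was tested on data simulated by the same averaging of pairs, without spread between libraries, so its result was largely set in advance. Genes changed there had more than 5 CPM, so levels near the floor were not covered. The genes and lists were chosen with earlier results of these data known. Named are all 10 genes, HUWE1 and ZBTB17, the 5 highest ratios per experiment and, from each list, genes past 2-fold in both experiments, or else the most extreme one. Gene positions are from GENCODE 44 on GRCh37. Alternatives were a subtracted floor, other folds and CPM minimums, non-negative least squares, and ratios centred on the median. ChIP sequencing was not analysed here. 1 gene of the list of receptor partners is not reported here.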

Additional observations from a re-analysis of the deposited data

How the results depend on the processing

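The counts of genes at least 2-fold higher with BI8622 were 5 in both experiments with the floor subtracted, with all genes listed, at a minimum of 5 CPM, with non-negative least squares and after centring, and 7 in both at 1.5-fold, where 6.78% and 13% of all genes were higher. At 4-fold they were 3 in the shHUWE1 experiment and 4 in the shMiz1 experiment, fewer by construction, against 0.0812% and 0.646% of all genes. All 10 genes passed the CPM minimums, so those settings could not change the counts. None of the ratios of the 10 genes changed sign under the alternatives that rescale them. Centring took away the medians of all genes, -0.0092 and 0.024 on the log2 scale, too little to bring any of the 10 across 2-fold. With the floor subtracted, 14 of 20 ratios moved by no more than 0.00809, the 95th percentile of the gap between routes; the others were CYP1A1, CYP1A2 and CYP1B1. CYP1A1 had log2 ratios of 8.99 and 10.14, and CYP1A2 had 9.02 and 7.17. With non-negative least squares CYP1A1 had 11.34 in the shMiz1 experiment. The 8 genes with at least 1 CPM in every group were 8 with the floor subtracted as well. No library could be left out, because only means over groups were used. No paired analysis was possible because the result comes from no test and no value per library was used.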
